A study of Mus musculus with 8 samples.

Results

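The TREM and CD300 genes encode paired immunoglobulin-like receptors of myeloid cells, and 9 of them were followed here together with Tyrobp, which encodes the adaptor DAP12. The genes were taken by symbol from the deposited count table: Trem1, Trem2, Trem3, Treml2, Treml4, Tyrobp, Cd300a, Cd300lb, Cd300ld and Cd300lf. These are 10 of 55414 gene IDs in the table, and all 10 were among the 14655 genes with enough counts to be tested. RNA came from Kupffer cells, the macrophages that reside in the liver, purified by FACS from WT C57BL/6J mice. One group had undergone CLP (caecal ligation and puncture, a model of abdominal sepsis) and the other sham surgery (Sham), and livers were taken 2 h later, with 4 libraries in each group. The series asks about the mechanism of hemolysis in sepsis. Both groups carried the same genotype, and neither the age of the mice nor the antibodies of the sort are given in the sources used here. The labels do not state that each library came from a different mouse, so the p-values measure the spread between these libraries.

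Most activating TREM and CD300 receptors have short tails and signal through an adaptor, DAP12 or the Fc receptor gamma chain, whose ITAM tyrosines recruit the kinase Syk. Inhibitory members carry ITIM tyrosines in their own tails and recruit phosphatases. TREM-1 is known for amplifying responses to bacterial products, TREM-2 for sensing lipids and lipoproteins, and several CD300 receptors for binding phosphatidylserine and other lipids of dying cells.

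On the scale used here, transcripts of 5 of the 10 genes rose after CLP: Trem1 by 14.2-fold, Cd300lb by 2.51-fold, Trem3 by 2.23-fold, Cd300ld by 1.56-fold and Cd300lf by 1.22-fold, of which Cd300lf turned lower when libraries were scaled by total counts. None of the 10 fell past the threshold, and Trem2, Treml4, Treml2, Tyrobp and Cd300a did not pass it in either direction. The test was edgeR's quasi-likelihood test with Benjamini-Hochberg adjustment over all genes and a threshold of 0.05. Of all genes tested, 24.9% were higher in CLP, 29.5% lower and 54.3% changed in either direction. In 5 of the 10 genes the 4 CLP libraries lay wholly apart from the 4 Sham libraries, which was also the case for 49.5% of all genes, so that the 10 genes' share was close to the background. The median log2 fold change of the 10 genes was 0.38, and that of all genes tested was -0.04. At an unadjusted p under 0.05, 7 of the 10 genes passed, 1 of them (Cd300a) on the lower side. DESeq2 and limma voom also placed 0 of the 10 genes on the lower side after adjustment, whereas total-count scaling placed 3 there. Upper quartile scaling, no filter on low counts, a stricter filter, a replicate block, and leaving out CLP 1 or both replicates 1 each placed 1 gene there.

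Library totals ran from 23311897 to 28724875 counts and did not separate the groups (two-sided exact permutation test, p = 0.743, smallest possible p 0.0286). CLP 1 correlated with the other CLP libraries across genes at r = 0.968 to 0.972, whereas those 3 correlated with each other at 0.986 to 0.987. Levels are given as CPM, the reads of a gene relative to the size of its library, after scaling by trimmed means (TMM), whose factors were 0.801 to 0.837 in CLP and 1.16 to 1.28 in Sham. Scaling by total counts alone shifted the log2 fold change of all genes by a median of -0.55. On that scale only Trem1 (log2 fold change 3.30) and Cd300lb (0.77) stayed higher, while Cd300a (-0.92), Tyrobp (-0.34) and Cd300lf (-0.27) were lower, so every direction below is relative to the TMM scale. Since the RNA is bulk RNA, fewer cells of a type and less RNA per cell cannot be told apart.

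**Figure D1:**
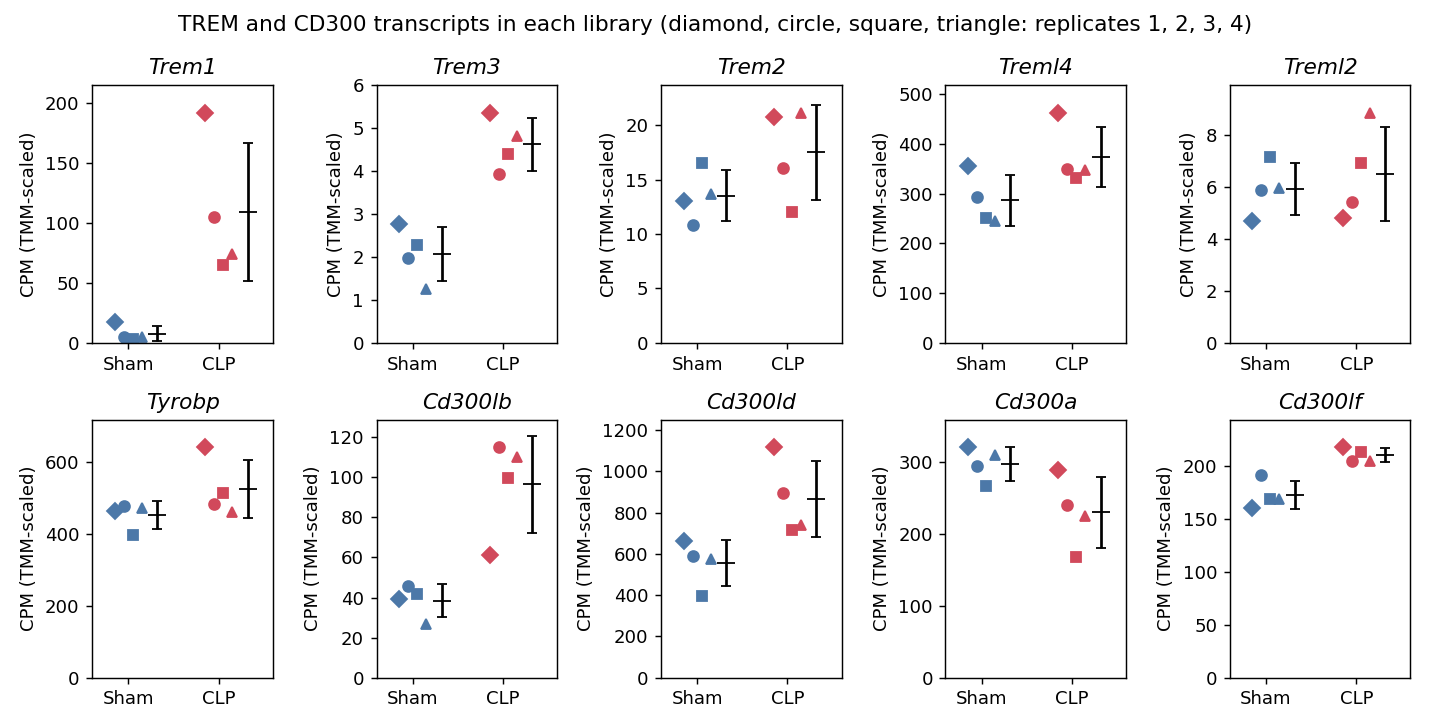
CPM (y axis, TMM-scaled, from 0) of the 10 genes in the 4 Sham (blue) and 4 CLP (red) libraries, with the replicate number shown by the marker and the mean and SD as a black bar. Trem1, Trem3, Cd300lb, Cd300ld and Cd300lf show no overlap between the groups, and CLP 1 (diamond) holds the highest Trem1 level and the lowest Cd300lb level of the CLP libraries.

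The DNA upstream of the start site is shown for Trem1 and Cd300lb, which had the largest rises, so that the letters searched can be seen beside the genes that moved most. They come from a RefSeq promoter table on GRCm38.p6, in which 7 of the 10 genes were found, not including Trem3, Treml2 and Tyrobp. The first line is the 250 bases before the Trem1 start at chr17:48232489-48232738 on the plus strand, and the second the 250 bases before the Cd300lb start at chr11:114934372-114934621 on the minus strand.
Trem1 upstream: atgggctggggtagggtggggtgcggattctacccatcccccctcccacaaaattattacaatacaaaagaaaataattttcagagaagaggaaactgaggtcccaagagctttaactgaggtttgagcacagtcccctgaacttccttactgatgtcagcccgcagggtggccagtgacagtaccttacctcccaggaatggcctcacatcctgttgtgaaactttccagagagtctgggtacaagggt
Cd300lb upstream: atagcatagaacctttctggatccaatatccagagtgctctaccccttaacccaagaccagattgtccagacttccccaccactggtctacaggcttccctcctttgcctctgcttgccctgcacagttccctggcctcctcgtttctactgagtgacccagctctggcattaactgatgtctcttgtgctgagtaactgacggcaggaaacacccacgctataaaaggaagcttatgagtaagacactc
Neither window, extended 50 bases past the start, held the letters searched for NF-kB (GGANTTTCC or GGGANTTCC), AP-1 (TGANTCA), C/EBP (TTGCNNAA) or PU.1 (GAGGAAGT) on either strand. Nothing about these factors follows from the missing letters. Among all 32851 promoters of the table, windows of the same length held the NF-kB letters in 2.89%, those of AP-1 in 7.81%, those of C/EBP in 10.8% and those of PU.1 in 3.2%.

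Of the 7 windows 4 held at least 1 match, and the 3 matches that lay upstream of the start are shown with the matched letters in capitals. The C/EBP letters began 214 bases before the start of Cd300a, the PU.1 letters 143 bases before that of Cd300ld and the AP-1 letters 9 bases before that of Trem2.
Cd300a, C/EBP letters: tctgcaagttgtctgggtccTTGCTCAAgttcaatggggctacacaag
Cd300ld, PU.1 letters: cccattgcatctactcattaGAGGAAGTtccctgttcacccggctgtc
Trem2, AP-1 letters: ctcacgcccttctccctcctTGAATCAca
The C/EBP letters also occurred 22 bases after the Trem2 start, and the PU.1 letters began at the start site of Cd300lf. The NF-kB letters occurred in 0 of the 7 windows. These matches describe the letters only, and no binding was measured here.

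Trem1, the activating receptor that amplifies Toll-like receptor responses, was the gene with the largest rise. Its level was 192, 105, 65.2 and 74.0 CPM in CLP 1 to 4 and 17.3, 5.33, 3.05 and 5.07 CPM in Sham 1 to 4. The groups did not overlap, and replicate 1 was the highest library in each of them. The mean after CLP was 109 ± 57.8 CPM and after sham surgery 7.68 ± 6.47 CPM (SD, n = 4). This gave a log2 fold change of 3.82 ± 0.55 (SE), with a 95% interval of 2.60 to 5.05 and an adjusted p of 2.2e-04 (edgeR). The interval corresponds to 6.05-fold to 33.1-fold, and 170 genes had a larger log2 fold change than Trem1. Without Sham 1 the log2 fold change was 4.62, with an adjusted p of 3.33e-05 (edgeR).

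Neutrophils express Trem1 strongly, and transcripts of neutrophils were more abundant after CLP in the same libraries. Of 13 neutrophil markers, 9 could be tested and all 9 rose, 4 of them from under 1 CPM in Sham. Genes such as Ltf (0.0542 CPM in Sham) and Ngp (0.0229 CPM) passed the count filter only through the CLP libraries. A rise was the only change that could be seen for them, so the count of rises is no independent support. Their sum was 239, 356, 582 and 557 CPM in CLP 1 to 4 and 101 to 139 CPM in Sham (exact permutation test, two-sided, p = 0.0286, the smallest possible, and 0.0714 after adjustment over 10 marker sums). The most abundant were Csf3r, the receptor for the granulocyte growth factor G-CSF (246 against 99.1 CPM), and S100a9 (62.2 against 1.32 CPM), which encodes a calcium-binding protein of neutrophil cytosol. Csf3r alone made up the larger part of the sum, whose means were 434 CPM in CLP and 122 CPM in Sham. Ly6g and Camp were at 0 in Sham, Elane was at 0 in CLP, and the granule gene Ngp had 0 counts in 3 Sham libraries.

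The tested neutrophil genes ranked the CLP libraries in another order than Trem1 did, and only Mmp9 shared the highest library, CLP 1, with it. S100a8, which pairs with S100a9, stood at 18.9, 33.2, 86.5 and 69.0 CPM in CLP 1 to 4 and at 1.65, 1.62, 0.872 and 0.764 CPM in Sham 1 to 4. Ngp stood at 1.29, 2.46, 9.80 and 23.4 CPM in CLP 1 to 4. CLP 1, the library with the most Trem1, was the lowest CLP library for 8 of the 9 tested markers. Mmp9, which encodes a matrix protease and is named after its values were seen, went the other way, at 39.7, 30.0, 22.3 and 38.5 CPM in CLP 1 to 4. In Sham, 5 of the 9 markers were highest in Sham 1, as Trem1 was, among them S100a9 at 2.32 CPM against 0.580 to 1.46 CPM in the other Sham libraries. The share of Trem1 reads that came from neutrophils was not measured.

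**Figure D2:**
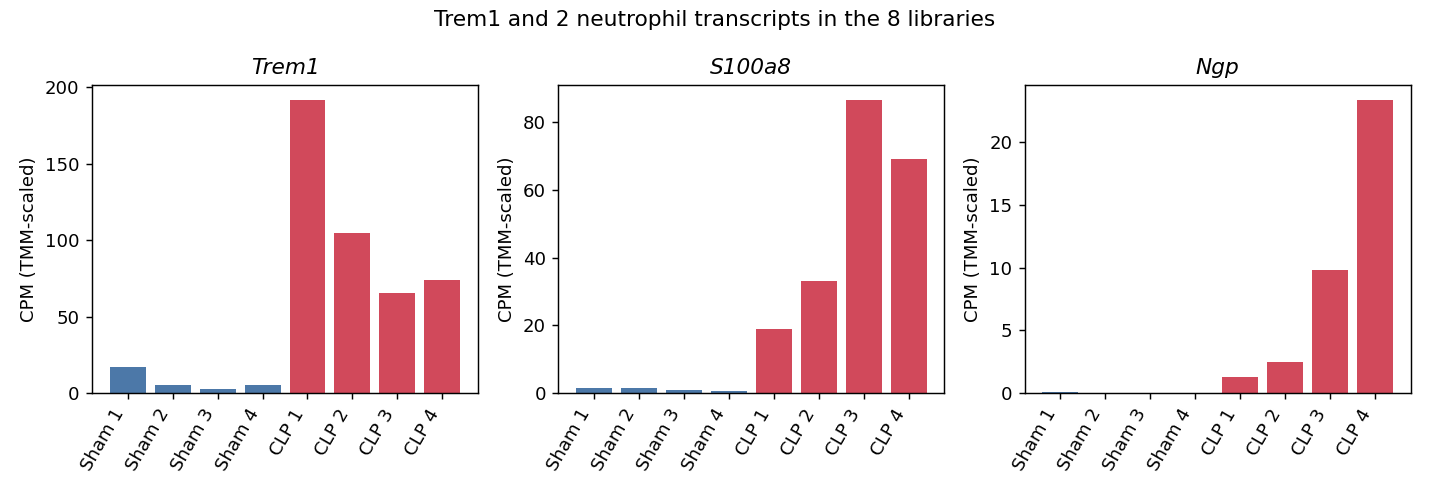
Bars give CPM (TMM-scaled, from 0) of Trem1 and of the neutrophil genes S100a8 and Ngp in each Sham (blue) and CLP (red) library. Trem1 is highest in CLP 1, at 192 CPM, where S100a8 and Ngp are at 18.9 and 1.29 CPM, the lowest of the CLP libraries.

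By a fixed measure, the root mean square difference of centred log2 CPM over the 8 libraries, the genes with profiles most like Trem1 among 8170 candidates were Bcl2a1a (0.46), Socs3 (0.47) and Dbn1 (0.47). Bcl2a1a encodes a survival protein of the BCL2 family and has near-identical copies in the mouse genome, so that its counts are uncertain. Socs3, a feedback inhibitor of cytokine signalling, averaged 2553 CPM after CLP and 170 CPM after sham surgery, and Dbn1, which encodes the actin-binding protein drebrin, averaged 19.2 and 1.35 CPM.

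Trem3 encodes another DAP12-linked activating receptor of the mouse TREM cluster and was among the least abundant of the 10 genes. CLP 1 to 4 held 5.37, 3.93, 4.40 and 4.83 CPM, and Sham 1 to 4 held 2.78, 1.98, 2.28 and 1.25 CPM. All CLP libraries were above all Sham libraries. The rise was 1.16 ± 0.25 (log2, SE; 95% interval 0.60 to 1.72; edgeR adjusted p = 0.00292) and rested on 399 counts in CLP and 265 in Sham. With total-count scaling it was 0.61 and missed the threshold (edgeR adjusted p = 0.0547).

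Trem2, the lipid-sensing receptor of tissue macrophages, did not pass the test. Its level was 20.8, 16.1, 12 and 21.2 CPM in CLP 1 to 4 and 13, 10.8, 16.5 and 13.7 CPM in Sham 1 to 4. The groups overlapped, with CLP 2 and CLP 3 inside the Sham range. The difference of 0.37 ± 0.20 (log2, SE) had a 95% interval of -0.06 to 0.81 and an adjusted p of 0.130 (edgeR). Without CLP 3 it was 0.52 and passed (edgeR adjusted p = 0.0294). Total-count scaling gave -0.19.

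Treml4 encodes a DAP12-linked receptor known for binding dying cells and was the most abundant TREM receptor per length. It stood at 463, 350, 331 and 348 CPM in CLP 1 to 4 and at 356, 292, 251 and 246 CPM in Sham 1 to 4. Only CLP 1 was above all Sham libraries. The log2 fold change of 0.38 ± 0.16 (SE, 95% interval 0.03 to 0.73) missed the threshold (edgeR adjusted p = 0.0609). It passed without Sham 1, at 0.52 (edgeR adjusted p = 0.0177), and was -0.17 with total-count scaling.

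Treml2, a family member that does not depend on DAP12, was low in both groups. CLP libraries held 4.83, 5.45, 6.92 and 8.88 CPM and Sham libraries 4.71, 5.88, 7.18 and 5.96 CPM. The ranges overlapped almost wholly. The difference on the log2 scale was 0.14 ± 0.22 (SE; 95% interval -0.35 to 0.62; edgeR adjusted p = 0.621), and it was -0.04 without CLP 4 and -0.42 with total-count scaling.

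Tyrobp, the adaptor through which TREM-1, TREM-2 and TREM-3 signal, was the most abundant of the 10 genes per length. It stood at 639, 482, 513 and 460 CPM in CLP 1 to 4 and at 463, 477, 395 and 470 CPM in Sham 1 to 4. CLP 4 lay inside the Sham range. On the log2 scale the difference was 0.21 ± 0.13 (SE; 95% interval -0.08 to 0.51; edgeR adjusted p = 0.193). On the total-count scale it was -0.34 and lower past the threshold (edgeR adjusted p = 0.0356), so the direction for the adaptor rests on the scaling.

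Ratios of counts within a library do not depend on the scaling between libraries, and they are given as descriptions. For each Tyrobp count there were 0.300, 0.217, 0.127 and 0.161 Trem1 counts in CLP 1 to 4 and 0.0373, 0.0112, 0.00772 and 0.0108 in Sham 1 to 4. The ratio of Trem1 to its adaptor was thus 14.0-fold higher in CLP, by geometric means, with no overlap. Trem3 to Tyrobp was 2.00-fold higher, also with no overlap, and Trem1 to Trem2 went from 0.593 ± 0.505 in Sham to 6.17 ± 2.39 in CLP (SD, n = 4). The ratios of Trem2, Treml2 and Treml4 to Tyrobp overlapped between the groups and differed by 1.11-fold, 0.937-fold and 1.13-fold.

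Cd300lb, which encodes the DAP12-linked activating receptor CD300b, a receptor known to bind lipopolysaccharide, rose most among the CD300 genes. CLP 1 to 4 held 61.3, 115, 99.8 and 110 CPM, and Sham 1 to 4 held 39.1, 45.7, 41.8 and 27.0 CPM. The groups did not overlap, and CLP 1, the library with the most Trem1, had the least Cd300lb of the CLP libraries. The mean after CLP was 96.5 ± 24.3 CPM and after sham surgery 38.4 ± 8.11 CPM (SD, n = 4), a log2 fold change of 1.33 ± 0.21 (SE; 95% interval 0.85 to 1.80; edgeR adjusted p = 4.5e-04). The call held in all 18 alternatives that were run, with log2 fold changes from 0.77 to 1.51.

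Cd300ld encodes an activating receptor that pairs with the Fc receptor gamma chain and was the most abundant receptor gene per length. CLP libraries held 1117, 893, 714 and 742 CPM, and Sham libraries 661, 592, 396 and 575 CPM. Every CLP library was above every Sham library, by a small margin between CLP 3 and Sham 1. The rise on the log2 scale was 0.64 ± 0.19 (SE; 95% interval 0.22 to 1.06; edgeR adjusted p = 0.0153). With total-count scaling it was 0.09 and missed the threshold (edgeR adjusted p = 0.648).

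Cd300a, an ITIM-bearing inhibitory receptor for phosphatidylserine, had the only negative log2 fold change of the 10 genes. It stood at 289, 240, 168 and 225 CPM in CLP 1 to 4 and at 321, 294, 266 and 310 CPM in Sham 1 to 4. CLP 1 lay inside the Sham range and the other CLP libraries below it. The log2 fold change was -0.37 ± 0.16 (SE; 95% interval -0.72 to -0.02) and missed the threshold (edgeR adjusted p = 0.0675). It passed as lower without CLP 1, at -0.50 (edgeR adjusted p = 0.00987), with upper quartile scaling (-0.48) and with total-count scaling (-0.92).

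Cd300lf, another ITIM-bearing receptor, which binds ceramide and phosphatidylserine, had the smallest rise that passed. CLP libraries held 218, 205, 214 and 205 CPM and Sham libraries 161, 191, 168 and 169 CPM. The groups did not overlap, and the spread within CLP was small, at 210 ± 6.4 CPM (SD, n = 4). The log2 fold change was 0.29 ± 0.10 (SE; 95% interval 0.07 to 0.51; edgeR adjusted p = 0.0300). The call was lost in 9 of 18 alternatives, among them without CLP 2, CLP 3, Sham 1, Sham 3 or Sham 4, one at a time, without both replicates 1, with upper quartile scaling (0.18) and with no filter on low counts (0.23). Total-count scaling turned the direction (-0.27), and 8 alternatives kept the call.

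Ratios of the other CD300 genes to Cd300a within each library did not overlap between the groups. The ratio of Cd300lb to Cd300a was 0.212, 0.480, 0.592 and 0.489 in CLP 1 to 4 and 0.122, 0.155, 0.157 and 0.0868 in Sham 1 to 4, a 3.27-fold difference of geometric means. Cd300ld to Cd300a was 3.78 ± 0.388 in CLP and 1.85 ± 0.259 in Sham (SD, n = 4). The ratio of the 2 inhibitory genes, Cd300lf to Cd300a, was 0.947 ± 0.223 in CLP and 0.582 ± 0.0712 in Sham. Over Cd300lf, the other inhibitory gene, the activating genes differed: Cd300lb to Cd300lf was 2.04-fold higher in CLP with no overlap, whereas Cd300ld to Cd300lf overlapped, at 4.11 ± 0.803 in CLP and 3.24 ± 0.73 in Sham. Cd300lb to Cd300ld, both activating, overlapped between the groups because CLP 1 (0.0549) lay within the Sham range.

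**Figure D3:**
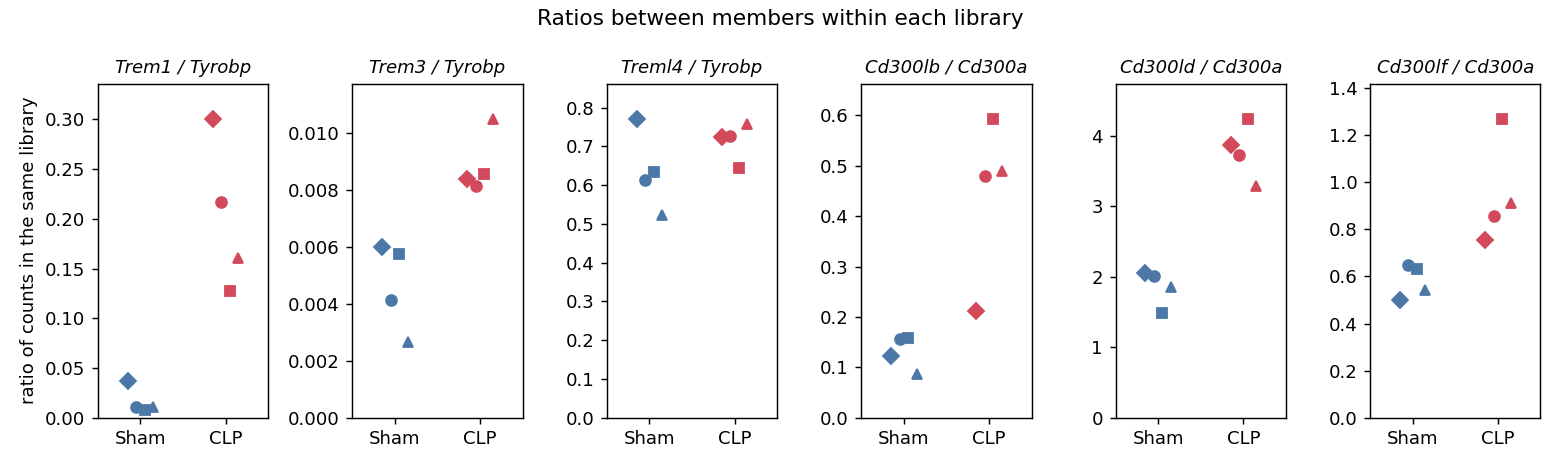
Ratios of counts of 2 genes within the same library (y axis, no unit, from 0) for the 4 Sham (blue) and 4 CLP (red) libraries, with the replicate number shown by the marker as diamond, circle, square and triangle. Trem1 and Trem3 over Tyrobp and the 3 ratios over Cd300a do not overlap between the groups, whereas Treml4 over Tyrobp does.

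**Figure D4:**
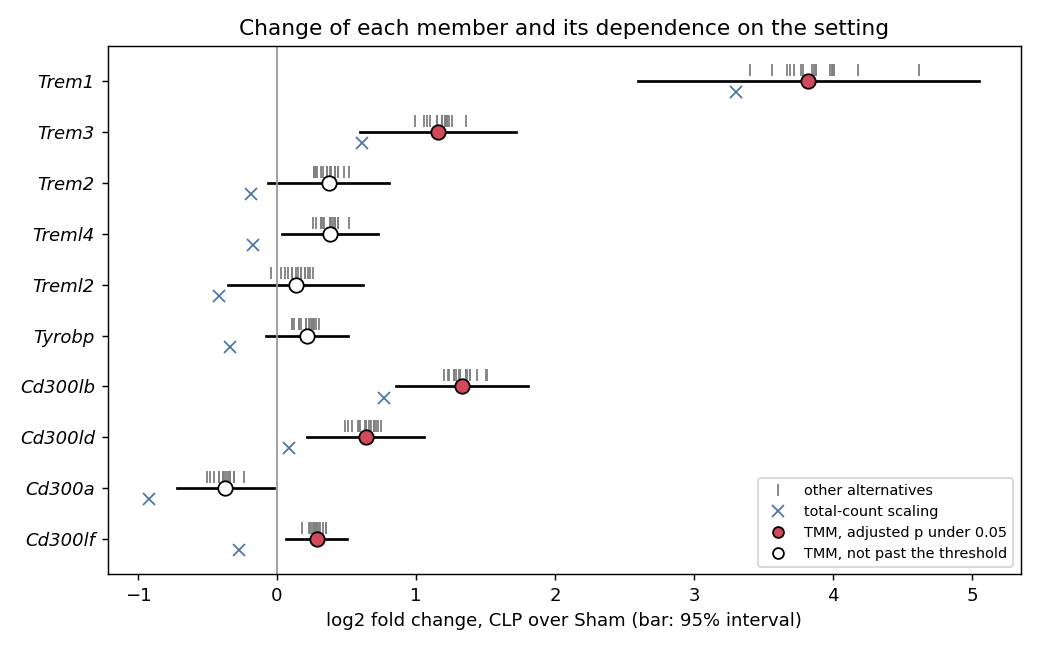
Log2 fold change of each gene, CLP over Sham, on the TMM scale (circle, filled red where the edgeR adjusted p was under 0.05) with its 95% interval, the value with total-count scaling (blue cross) and the values of the other alternatives (grey ticks). Trem1, Cd300lb, Trem3 and Cd300ld lie right of 0 in each of them and Cd300a left of 0, though only Trem1 and Cd300lb kept their side of the threshold throughout. Trem2, Treml4, Treml2, Tyrobp and Cd300lf are left of 0 with total-count scaling.

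Levels of different genes were compared per length, as CPM per kilobase of the union of exons. In Sham the order began with Tyrobp (677 ± 56.9), Cd300ld (210 ± 42.7) and Treml4 (143 ± 25.5), and went on with Cd300a (62.9), Cd300lf (33.5) and Cd300lb (13.2). Trem2 (2.73), Trem1 (2.56), Trem3 (2.09) and Treml2 (1.21) closed it. The ranges of Cd300ld and Treml4 overlapped, as did each neighbouring pair among the last 4. In CLP, Trem1 moved up to 36.3 ± 19.3, where its range overlapped those of Cd300lf (40.8) and Cd300lb (33.1), while Tyrobp (785), Cd300ld (328) and Treml4 (187) remained the top 3. The length chosen matters for 2 genes: with the longest protein-coding transcript, a choice made after the lengths were seen, Trem2 in Sham was 12.4 and Cd300lf 91.4, above Cd300a.

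The other TREM and CD300 genes of the table numbered 10, and 8 were tested: 5 rose, 1 fell and 2 did not pass, with a median log2 fold change of 0.57. With total-count scaling, 1 was higher and 1 lower, and without CLP 2, Sham 3 or Sham 4, one at a time, 2 were higher. Treml6, listed as B430306N03Rik, fell most, from 163, 219, 265 and 171 CPM in Sham 1 to 4 to 56.5, 67.5, 70.3 and 120 CPM in CLP 1 to 4. Its groups did not overlap, and the fall was -1.38 ± 0.24 on the log2 scale (SE, edgeR adjusted p = 7.5e-04). Cd300c2 (207 ± 15.3 against 162 ± 18.6 CPM, log2 fold change 0.36, edgeR adjusted p = 0.0217) and Cd300e (303 ± 34.2 against 230 ± 43.7 CPM, 0.39, edgeR adjusted p = 0.0492) rose on the TMM scale.

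Other cell types or shared sequence bear on several of these genes. Treml1, the platelet receptor TLT-1, rose from 0.124 to 0.825 CPM (log2 fold change 2.68 ± 0.47 SE, edgeR adjusted p = 7.3e-04). Like the platelet marker Gp9, it passed the count filter only through the CLP libraries. Of 7 platelet markers, 5 were tested and 4 rose, by 2.36 to 3.42 on the log2 scale, among them Pf4 (18.1 to 148 CPM). Clec1b, the most abundant marker, did not pass and averaged 234 CPM after CLP and 278 CPM after sham surgery. Gp1bb was at 0 everywhere, and the platelet sum was 349 to 482 CPM in CLP and 247 to 331 CPM in Sham. Clec1b made up the larger part of this sum, whose means were 403 and 299 CPM. In Sham, Clec1b stood at 278 CPM beside Itga2b at 1.17 CPM and Gp9 at 0.124 CPM. The sum thus mostly follows Clec1b and is no measure of platelets, and the cells from which the Clec1b reads came were not tested. The part of platelets in the Treml1 result was not tested. Cd300lg, known from endothelium, rose from 4.05 to 7.49 CPM (log2 fold change 0.88), beside an endothelial marker sum of 583 to 603 CPM in CLP and 514 to 625 CPM in Sham and rises in 3 of 6 markers. Cd300ld3 rose from 8.06 to 13.2 CPM (log2 fold change 0.71), but 82.1% of its 50-base stretches occur in transcripts of another gene, so its counts are uncertain. Cd300ld5 (0.720 and 0.971 CPM in Sham and CLP) and Cd300c (0.324 and 0.635 CPM) did not pass, and Cd300ld2 (28 counts in all) and Cd300ld4 (49) were not tested. The share of such stretches was 100% for Cd300ld5, 93.8% for Cd300ld4 and 31% for Cd300ld2, so their counts are uncertain too. Of the 10 genes followed here, Cd300a, Cd300ld and Cd300lf share 2.29% to 3.89% of such stretches with other genes, and the other 7 share none.

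Among 10 tested receptors or adaptors outside the families that use DAP12 or DAP10, 1 rose, 1 fell and 8 did not pass, with a median log2 fold change of 0.06. Plxna1, which encodes plexin-A1, a partner of TREM-2 and DAP12, rose from 121 ± 24.5 to 1079 ± 434 CPM (SD, n = 4; log2 fold change 3.16 ± 0.31 SE, edgeR adjusted p = 2.1e-05). Its level was 489 CPM in CLP 1 and 1121 to 1535 CPM in CLP 2 to 4, so that CLP 1, highest for Trem1, was lowest for Plxna1. Klrk1, encoding the receptor NKG2D, fell from 41.0 to 19.5 CPM (log2 fold change -1.07 ± 0.20 SE). Hcst, encoding the adaptor DAP10, stood at 6.75 and 5.73 CPM in CLP and Sham, and Clec5a, another DAP12-linked receptor, at 2.07 and 1.38 CPM. With total-count scaling 1 of the 10 was higher and 5 lower, and without Sham 1 there were 2 higher.

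Of 27 tested genes that carry the ITAM signal, 17 rose, 3 fell and 7 did not pass, and the median log2 fold change was 0.80. Fcer1g, the gamma chain used by CD300ld, rose from 375 ± 40.7 to 678 ± 37.8 CPM (SD, n = 4; log2 fold change 0.85 ± 0.12 SE). Whether that change differed from the one of Tyrobp was not tested. Syk, the kinase recruited by both, rose from 576 ± 112 to 1846 ± 342 CPM (log2 fold change 1.68 ± 0.18 SE, edgeR adjusted p = 3.4e-05).

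The CARD9, BCL10 and MALT1 proteins form the complex that links Syk to NF-kB, and their transcripts moved in different directions. Malt1 rose from 33.4 to 362 CPM (log2 fold change 3.44 ± 0.26 SE) and Bcl10 from 61.9 to 145 CPM (1.23 ± 0.12 SE), whereas Card9 fell from 16.2 to 9.43 CPM (-0.78 ± 0.14 SE). Nfatc1, a calcium-regulated transcription factor, fell from 42.5 to 16.9 CPM (-1.33 ± 0.14 SE), and the third gene that fell was the kinase gene Btk, named after its value was seen. Plcg2, the phospholipase downstream of Syk, did not pass, with 163 CPM after CLP and 175 CPM after sham surgery. With total-count scaling, 11 of the 27 genes were higher and 7 lower.

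Of 13 tested genes for phosphatases and other brakes, 5 rose, 4 fell and 4 did not pass, with a median log2 fold change of 0.02. Ptpn6, which encodes SHP-1, the phosphatase recruited by CD300a and CD300lf, fell from 338 ± 32.9 to 198 ± 33.6 CPM (SD, n = 4; log2 fold change -0.77 ± 0.14 SE, edgeR adjusted p = 9.2e-04). Inpp5d, encoding the lipid phosphatase SHIP1, stood at 279 and 275 CPM in CLP and Sham. The adaptor gene Dok3 (-1.02 ± 0.15 SE) and the kinase gene Csk (-0.89 ± 0.15 SE) fell as well on the log2 scale, and Ubash3b (1.74 ± 0.29 SE) and Ptprc (0.73 ± 0.12 SE), both encoding phosphatases, rose. With total-count scaling, 1 of the 13 was higher and 9 were lower, and without CLP 3, Sham 2 or Sham 4, one at a time, 3 were higher.

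**Figure D5:**
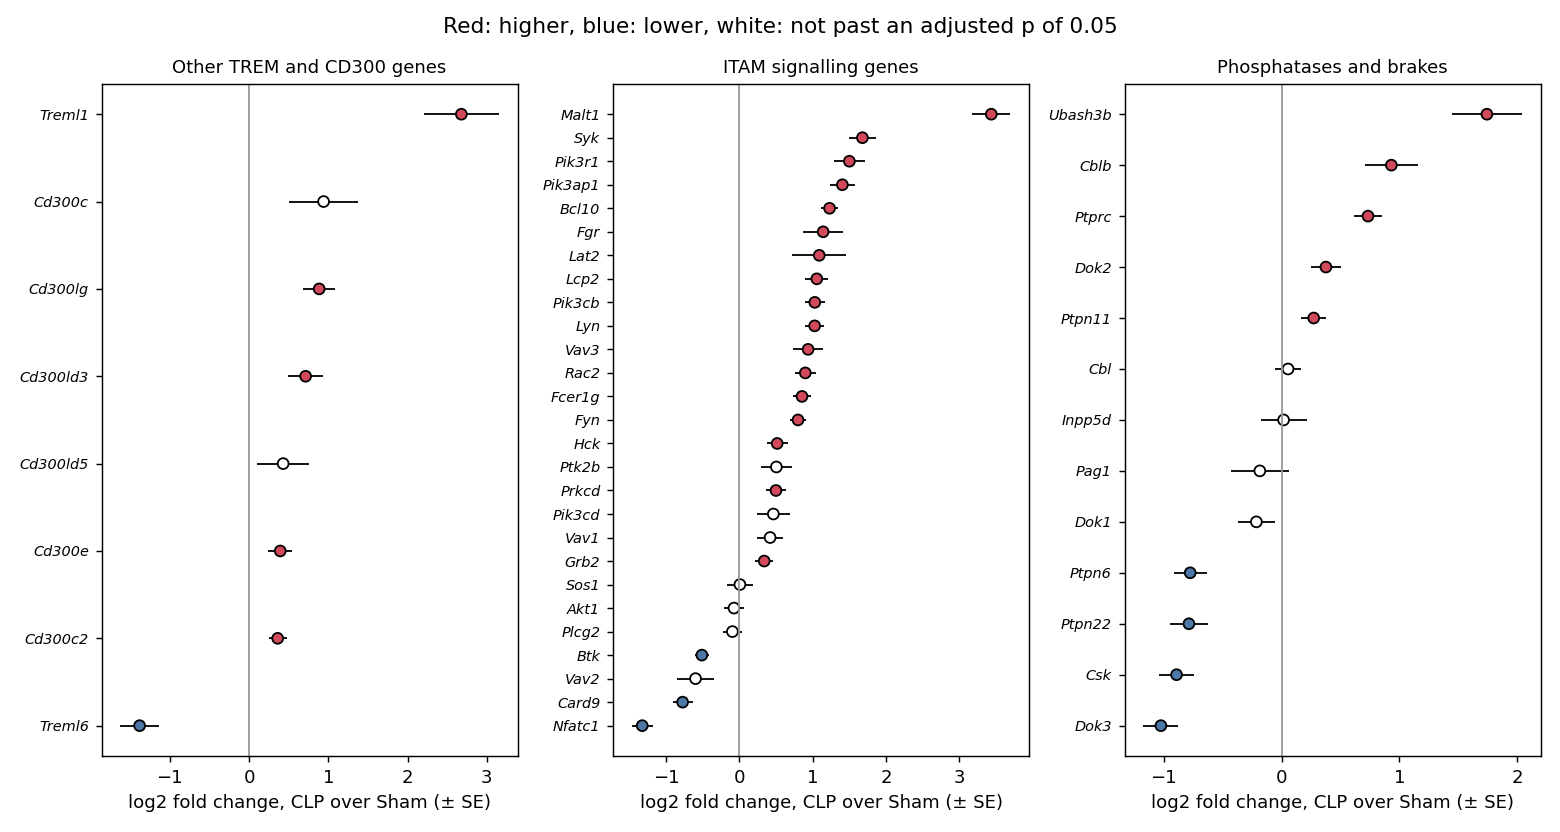
Log2 fold change, CLP over Sham, with its SE for the tested genes of 3 lists: other TREM and CD300 genes, ITAM signalling, and phosphatases and other brakes. On the TMM scale 17 of 27 ITAM genes are higher (red) and 3 lower (blue), and of 13 phosphatases and brakes 5 are higher and 4 lower; with total-count scaling these counts were 11 and 7, and 1 and 9.

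Ligands, proteases and other genes linked to the receptors gave 6 rises and 0 falls among 12 tested genes by edgeR, at a median log2 fold change of 0.40. Il4ra and Ctnnb1, which are neither ligands nor proteases, are among the 6 rises. With total-count scaling 3 were higher and 5 lower. Without CLP 1, 3 were lower. Adam17, a protease that sheds TREM-2 from the surface, rose from 341 ± 51.2 to 616 ± 67.6 CPM (SD, n = 4; log2 fold change 0.85 ± 0.14 SE), whereas Adam10, which also sheds it, did not pass, with 418 CPM after CLP and 499 CPM after sham surgery. Apoe, encoding a lipoprotein ligand of TREM-2, did not pass (edgeR adjusted p = 0.107), with 7954 ± 1767 CPM after CLP and 6324 ± 429 CPM after sham surgery. Il4ra, a receptor chain that CD300f is known to associate with, rose from 311 to 1817 CPM (log2 fold change 2.55 ± 0.23 SE), and Ctnnb1, encoding beta-catenin, by 0.81 ± 0.13 (log2, SE). Pglyrp1, encoding a ligand of TREM-1 stored in neutrophil granules, rose from 0.0687 to 1.28 CPM, in the libraries whose neutrophil markers are given above. It had 9 counts in Sham and 109 in CLP, and passed the count filter only through the CLP libraries.

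Paired receptors outside the TREM and CD300 families, most of them inhibitory, rose in 10 of 14 tested cases and fell in 0 by edgeR. Their median log2 fold change was 0.80. With total-count scaling 4 were higher and 2 lower. Without CLP 1, 1 was lower. Lilr4b, which is not itself an inhibitory receptor, rose from 204 ± 65.6 to 1436 ± 847 CPM (SD, n = 4, log2 fold change 2.82 ± 0.43 SE). Its reads may be split with its close copy Lilrb4a, which is inhibitory. Lilrb4a rose from 188 to 443 CPM (1.24 ± 0.41 SE), with CLP 1 (165 CPM) inside the Sham range of 118 to 295 CPM. Cd200r1 rose from 15 to 44.4 CPM (1.56 ± 0.27 SE) and Clec12a from 224 to 457 CPM (1.02 ± 0.12 SE). Siglecg, a gene known from B cells, rose from 0.101 to 2.85 CPM, beside 5 of 6 B cell markers that rose, all 5 from under 1 CPM in Sham, and 1, Cd79b, that fell. Siglecg and markers such as Cd79a (0.185 CPM in Sham) passed the count filter only through the CLP libraries. The B cell marker sum was 12.9 to 20.1 CPM in CLP and 7.48 to 12.7 CPM in Sham, and its part in the Siglecg result was not tested.

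The labelled cell type was visible in its markers. Clec4f averaged 8920 CPM after CLP and 7374 CPM after sham surgery, and Cd5l 6451 and 5316 CPM. The summed Kupffer cell markers spanned 27439 to 33828 CPM in CLP and 23237 to 29221 CPM in Sham (exact permutation test, two-sided, p = 0.343), and of 11 tested 3 rose, 2 fell and 6 did not pass. Monocyte markers summed to 421 to 604 CPM after CLP and 322 to 473 CPM after sham surgery. For hepatocyte markers the sums were 2568 to 3499 and 1831 to 2683 CPM, and for dendritic cell markers 11.1 to 17.4 and 22.7 to 41.8 CPM. Clec9a made up the larger part of the dendritic cell sum and fell from 26.7 to 8.91 CPM (log2 fold change -1.58 ± 0.24 SE). The other tested dendritic cell markers, Xcr1 (0.01) and Zbtb46 (-0.13), did not pass. This sum thus mostly follows Clec9a and is no measure of dendritic cells. T or NK cell markers summed to at most 2.63 CPM in any library, those of mast cells or basophils to at most 4.63 CPM, and the mast cell and basophil genes Mcpt4 and Mcpt8 were at 0 everywhere.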

How the data were processed

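Per the labels' protocols, RNA was extracted with an Aurum kit (Bio-Rad), made into TruSeq stranded libraries and read on an Element AVITI. The deposited values are whole read counts per gene for 8 libraries, 4 per group. FastQC, STAR 2.7.10b, featureCounts, DESeq2 and the mm39 assembly are named in the submitters' processing notes. The strand setting and the annotation release of the count were not given in the sources used here.

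Gene symbols and exon lengths came from GENCODE M21, an annotation on GRCm38, which named 52081 of 55414 IDs. Of 181 list names, 180 were found. As the counts were made on mm39, gene coordinates are not printed, and promoter coordinates are those of the RefSeq table on GRCm38.p6. After filterByExpr and TMM scaling, CLP was tested against Sham in edgeR 4.0.16 under R 4.3.3 by the robust quasi-likelihood F-test with no covariate, adjusting over 14655 genes. The SE is approximated from the log2 fold change and its F statistic, and the 95% intervals rest on it. Alternatives used DESeq2 1.42.0, limma 3.58.1 (voom), other scalings and filters, a GC correction, a replicate block and libraries left out. Leaving out both replicates 1 and the coding-transcript length were chosen after the data were seen.

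The 10 genes and the lists were chosen with earlier results of these data known. Named beside the 10 genes were the other family genes with at least 10 counts, fixed signalling and ligand genes, the 4 smallest p-values of each signalling or ligand list, and the 2 most abundant markers and those at 0 of each cell type list. Not every marker so named is described. The labels do not state that the replicate numbers pair the libraries. Deviations of same-numbered libraries correlated across genes at 0.172, -0.125, 0.126 and -0.0853, and those of differently numbered libraries at -0.408 to 0.335. This shows no pairing but cannot exclude one. Tested on simulated data of 14655 genes, with 50 genes changed at each size, edgeR recovered 7, 36, 48 and 50 genes changed by 1.5, 2, 4 and 8-fold, with 10 false calls among 151. Far fewer genes were changed there than the 54.3% called in the real data, so the simulation does not test the scaling between the groups.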

Additional observations from a re-analysis of the deposited data

Results flagged for a closer look

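Each of the 10 genes was examined in each group of 4 libraries for a library far from the rest, by Dixon's test on the gap to the nearest library. Chance alone flags about 1 in 20 such groups, and 2 of 20 were flagged here. Trem1 stood at 17.3 CPM in Sham 1, against 3.05 to 5.33 CPM in the other Sham libraries, and the gap took 0.839 of the range. Treml4 stood at 463 CPM in CLP 1, against 331 to 350 CPM in the other CLP libraries, and the gap took 0.855 of the range. Neither library was left out of the results above.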

How the results depend on the processing

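Trem1 (log2 fold change 3.30 to 4.62) and Cd300lb (0.77 to 1.51) kept their direction and their side of the threshold in all 18 alternatives. The scaling between libraries mattered most. With total-count scaling 2 of the 10 genes were higher and 3 lower. Of all genes, 1715 were higher and 8292 lower, which makes 17.1% of the calls upward, against 45.8% with TMM. On that scale Trem2 (-0.19), Treml2 (-0.42), Treml4 (-0.17), Tyrobp (-0.34) and Cd300lf (-0.27) reversed. With upper quartile scaling 38.7% of calls were higher, and Cd300a was lower past the threshold, so that 1 of the 10 genes was lower. One was also lower with no filter on low counts, with the stricter filter, with both replicates 1 left out and with the replicate block, and each time it was Cd300a. The stricter filter left 8331 genes, without Trem3 and Treml2, and 2712 genes lower. Leaving out 1 library at a time gave 4 to 5 genes higher and 0 to 1 lower of the 10, and moved Treml2 from -0.04 to 0.26. The replicate block, fitted although the labels state no pairing, gave 5 genes higher and 1 lower of the 10, and 3491 higher and 4303 lower of all genes. Under it Treml4 passed (0.38, edgeR adjusted p = 0.0253), Cd300a passed as lower (-0.39, edgeR adjusted p = 0.0343) and Cd300lf missed the threshold (0.29, edgeR adjusted p = 0.0709). In their deviations across genes, CLP 1 correlated best with Sham 4 (0.335), CLP 2 with Sham 3 (0.243), CLP 3 with Sham 2 (0.19) and CLP 4 with Sham 3 (0.269). None of these shares its number, whereas Sham 1 correlated best with CLP 1 (0.172). Treml4 also passed with DESeq2 (0.44, adjusted p = 0.0237). Apart from the scaling and the number of genes or libraries used, the cause of these differences was not tested. The SE did not follow depth among the 10 genes, at 0.55 for Trem1 with 9547 counts in CLP and 997 in Sham and 0.22 for Treml2 with 553 and 756. Cd300ld2 (28 counts) and Cd300ld4 (49) did not pass the count filter, and whether sequence shared with other genes lowered their counts was not tested.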
